A study of Mus musculus with 18 samples.

Results

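The growth hormone (GH) and insulin-like growth factor (IGF) axis was followed through 10 genes in mouse liver tumours: the GH receptor Ghr, its transducers Stat5a and Stat5b, its feedback inhibitors Socs2 and Cish, the hormone gene Igf1, and the carriers Igfals, Igfbp1, Igfbp2 and Igfbp3. The 10 genes were taken by name from a table of 55335 genes, and each was found and passed the filter on low counts. They were chosen with earlier results of these data known, so their counts beside the shares of all genes are descriptions. RNA was sequenced from 12 tumour libraries, 3 in each of 4 groups, from a study that asked what follows when cells expressing Prom1, a surface marker of candidate tumour-propagating cells, are removed from established hepatocellular carcinoma. In the DEN+CCl4 model, diethylnitrosamine (DEN, 1 mg/kg), a carcinogen, was given when mice were 14 days old, and CCl4 (0.2 ml/kg), a solvent that injures hepatocytes, followed from week 8 of life for 12 to 16 weeks. For N-Ras+AKT tumours, plasmids encoding NRasV12 and myr-AKT (20 µg each) were placed in the liver by hydrodynamic tail vein injection with a Sleeping Beauty transposase plasmid (1.6 µg), so that these tumours carry a forced activator of the pathway that insulin and IGF-I also use. The strain label of all 12 libraries is Prom1C-L/+;Rosa26DTA/+: a CreERT2-LacZ cassette under the Prom1 promoter lets tamoxifen switch on diphtheria toxin A, which kills the cell that makes it.

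Libraries labelled as depletion came from mice given 4 mg doses of tamoxifen, and the final dose preceded tumour collection by 16 days in the DEN+CCl4 and by 6 days in the N-Ras+AKT groups. The controls are described in the design text as Prom1+/+;Rosa26DTA/+ littermates, and an olive oil vehicle is also named, so whether a control mouse lacked the Cre allele, the tamoxifen or both could not be settled. The control libraries are replicates 7, 8 and 13 (DEN+CCl4) and 3, 10 and 15 (N-Ras+AKT), and the depletion libraries are replicates 6, 9 and 10 (DEN+CCl4) and 6, 11 and 17 (N-Ras+AKT). The labels number the samples without saying which animal each came from, so p-values measure only the spread between these libraries. Age at collection, sex and litter are not labelled.

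In the liver, GH from the pituitary binds its receptor on hepatocytes and activates the kinase JAK2, which phosphorylates STAT5A and STAT5B. These enter the nucleus and turn on Igf1, Igfals, Socs2 and Cish, and the SOCS2 and CIS proteins then damp signalling at the receptor. Most IGF-I in blood comes from the liver and travels in a complex with IGFBP3 and the acid-labile subunit, the product of Igfals, while IGFBP1, which insulin represses through FOXO transcription factors and fasting induces, and IGFBP2 carry smaller amounts.

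In the mouse genome (GRCm38, GENCODE M21) Ghr lies at chr15:3317760-3583492 on the minus strand and Igf1 at chr10:87858265-87937042 on the plus strand. Igfals (chr17:24865997-24882010, plus) and Cish (chr9:107296026-107302784, plus) stand alone among the 10, as does Igfbp2 (chr1:72824503-72852474, plus), while Socs2 (chr10:95385362-95417180, minus) shares a chromosome with Igf1. Chromosome 11 holds Stat5b (chr11:100780731-100850724, minus) beside Stat5a (chr11:100859351-100885169, plus), and Igfbp1 (chr11:7197782-7202546, plus) beside Igfbp3 (chr11:7206086-7213923, minus).

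Promoter windows of these genes, from 250 bases before to 50 after the annotated start, were read from RefSeq (GRCm38.p6) for 9 of the 10 genes, and 3 of them are shown because they hold the letters of the transcription factors just named. The STAT5-type motif TTCNNNGAA, a palindrome that reads alike on both strands, was found in 8.30% of 32851 mouse windows of 300 bp. Of the FOXO-type motifs, CAAAACA was found on either strand in 6.28% and GTAAACA in 3.65%. In capitals below are STAT5-type matches in Cish and Igfals, the CAAAACA match in Igfbp1 and a GTAAACA match on the minus strand of Igfals, and the windows of the other members held none of these letters.
Cish, plus strand, chr9:107296409-107296708: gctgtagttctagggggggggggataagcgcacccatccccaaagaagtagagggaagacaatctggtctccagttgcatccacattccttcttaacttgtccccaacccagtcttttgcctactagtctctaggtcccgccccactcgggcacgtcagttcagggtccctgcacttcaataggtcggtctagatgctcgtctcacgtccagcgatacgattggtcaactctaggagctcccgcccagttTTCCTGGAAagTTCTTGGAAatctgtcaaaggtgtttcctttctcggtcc
Igfals, plus strand, chr17:24877981-24878280: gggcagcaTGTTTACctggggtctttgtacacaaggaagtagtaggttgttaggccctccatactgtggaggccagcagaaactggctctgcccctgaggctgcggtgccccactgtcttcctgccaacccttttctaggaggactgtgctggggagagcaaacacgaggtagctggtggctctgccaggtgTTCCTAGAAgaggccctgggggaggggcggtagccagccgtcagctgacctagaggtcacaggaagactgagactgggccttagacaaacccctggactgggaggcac
Igfbp1, plus strand, chr11:7197537-7197836: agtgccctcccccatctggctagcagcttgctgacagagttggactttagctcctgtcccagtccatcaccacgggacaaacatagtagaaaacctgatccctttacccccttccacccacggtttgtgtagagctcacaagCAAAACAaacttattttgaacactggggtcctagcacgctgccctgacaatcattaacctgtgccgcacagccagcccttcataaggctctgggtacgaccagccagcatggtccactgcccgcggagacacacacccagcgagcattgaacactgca
The Cish window holds 2 STAT5-type matches side by side, at positions 1 and 12 counted from the start site, and the Igfbp1 match lies at position −108. Igfals has other annotated starts, and 1 further window (chr17:24877594-24877893) holds a STAT5-type match at position −236. A match of letters is a description of the window and not evidence of binding.

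Library totals ran from 31306617 to 48055812 counts, and levels are given as CPM, the share of counts in a library scaled by edgeR's TMM factors. Prom1, the gene whose cells were targeted, stood at 60.1, 76.7 and 48.9 CPM in the DEN+CCl4 controls and at 17.4, 40.0 and 35.6 CPM after depletion (log2 difference −0.995 ± 0.57 SE, adjusted p 0.381). It fell in N-Ras+AKT tumours, from 45.3, 59.2 and 78.2 to 5.80, 16.5 and 2.16 CPM (log2 −2.90 ± 0.61, adjusted p 0.00953). All 14 hepatocyte markers examined, among them Alb at 44397 CPM or more in each library, were detected in every group. The Y-linked Ddx3y was at 57.5 to 92.4 CPM and Xist at 1.41 CPM or less in all 12 libraries, and Gh itself was at 0 in 11 libraries, with 1 count in the other. In a principal component analysis, DEN+CCl4 depletion replicate 6 (component 3) and N-Ras+AKT depletion replicate 17 (component 2) lay farthest from their groups. They also had the least Prom1 of their groups, and results that rest on them are given without them.

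After depletion in N-Ras+AKT tumours, 5 of the 10 genes rose (Ghr, Stat5a, Stat5b, Igfals and Igfbp2) and 1 fell (Igfbp3), against 12.8% of 17013 genes that rose and 10.8% that fell (23.7% in either direction). In DEN+CCl4 tumours, 0 of the 10 passed, where 0.37% of all genes did (0.112% higher, 0.259% lower) by edgeR's quasi-likelihood test. There 5 of the 10 had an unadjusted p under 0.05 (3186 of all genes), and DESeq2 called 4 (1066 of all genes): Ghr and Igfals lower, Socs2 and Igfbp1 higher. The difference between the depletion effects of the models passed for 7 of the 10 genes, against 11.6% of all genes: 5 with the higher effect in N-Ras+AKT tumours (7.98% of all genes) and 2 with the lower (3.6%). The CPM of the groups did not overlap for 6 of the 10 genes in N-Ras+AKT tumours, against 43% of all genes, and for 5 of the 10 in DEN+CCl4 tumours, against 27.5%. The median log2 difference of the 10 genes was 0.53 in N-Ras+AKT and 0.08 in DEN+CCl4 tumours, beside −0.02 and −0.01 over all genes. Without N-Ras+AKT control 3, control 15 or depletion 17, 3 of the 10 passed in that model, while 2257, 2225 and 1768 of all genes did. Without both libraries that lay apart 4 of the 10 and 2429 of all genes did, against 6 and 4027 with them. For the difference between the depletion effects, 2 of the 10 and 844 of all genes passed without both libraries that lay apart, against 7 and 1970 with them. With 1 library left out the count for that difference ran from 2 (without DEN+CCl4 control 7 or depletion 9, where 895 and 986 of all genes passed) to 8 (without N-Ras+AKT control 10, where 2326 did). In bulk tissue, fewer cells of a type and less RNA per cell cannot be told apart.

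**Figure D1:**
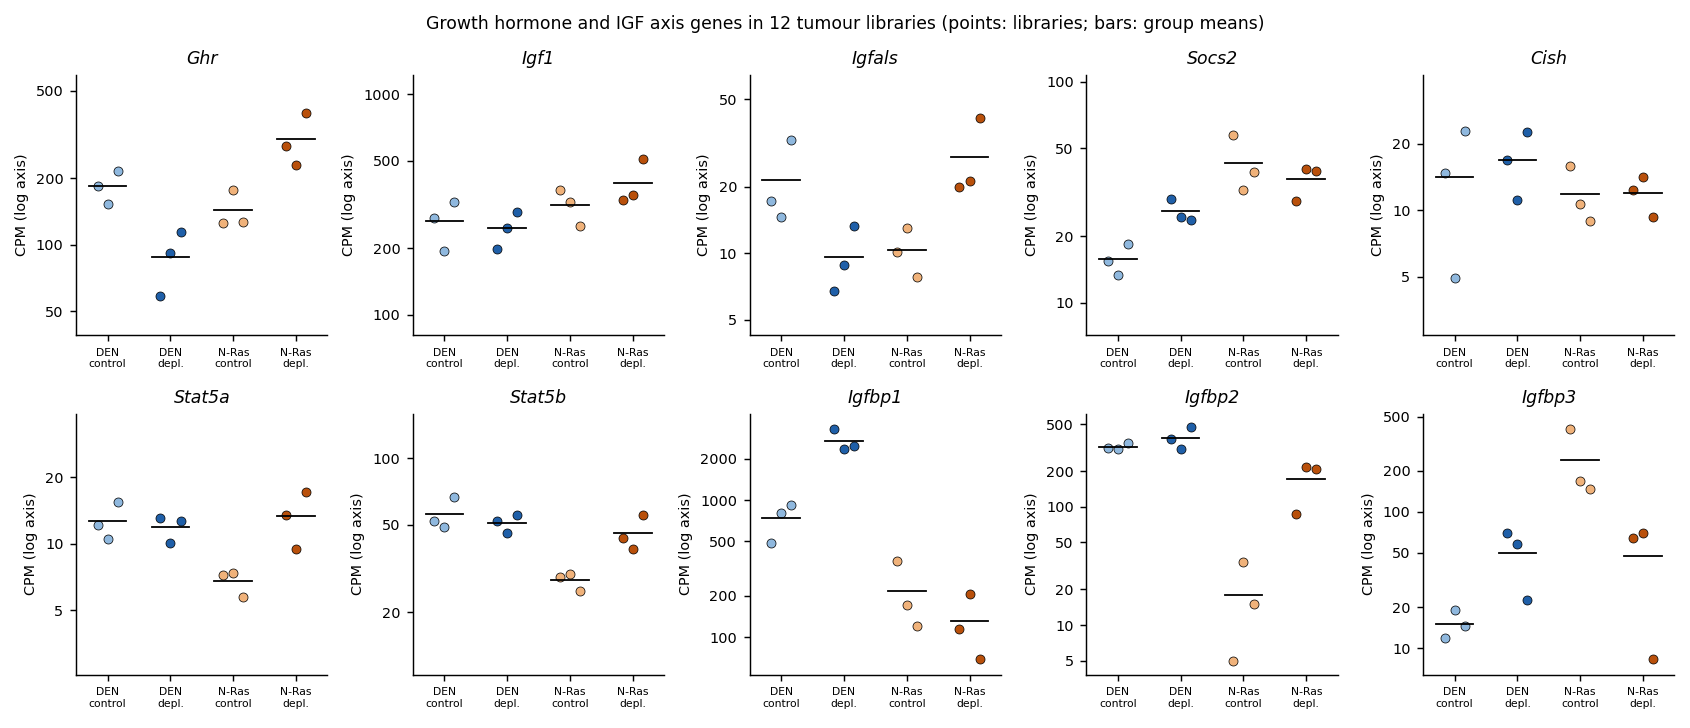
CPM on a log axis (y) of the 10 genes by group (x) in DEN+CCl4 (DEN) and N-Ras+AKT (N-Ras) tumours, with points for the 3 libraries of a group and bars for their means. Ghr and Igfals are high in DEN+CCl4 controls and in N-Ras+AKT depletion, Igfbp1 is highest in DEN+CCl4 depletion at 2352 CPM or more, and Igfbp3 is highest in N-Ras+AKT controls at 147 CPM or more.

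**Figure D2:**
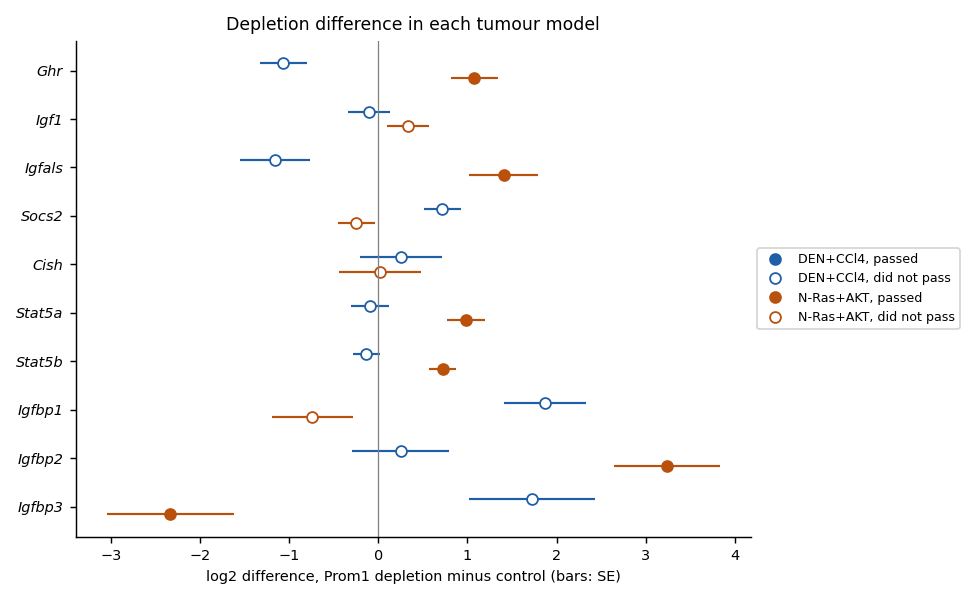
Log2 difference (x) between depletion and control for each gene (y) in both models, with bars for SE and filled points for genes that passed at an adjusted p under 0.05. Filled points are all from N-Ras+AKT tumours, and Ghr lies at −1.07 in DEN+CCl4 and 1.08 in N-Ras+AKT.

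Depletion was accompanied by more Ghr, the receptor's RNA, in N-Ras+AKT tumours, and the effect differed between the models, which also differed in days after tamoxifen. It stood at 126, 176 and 127 CPM in N-Ras+AKT controls and at 281, 230.0 and 394 CPM after depletion. The groups did not overlap, and replicate 17 was the highest. Ghr rose 2.11-fold (log2 1.08 ± 0.26 SE, adjusted p 0.0151), a call that ended without control 3 (adjusted p 0.0588), control 15 (0.0583) or depletion 17 (0.0618), with log2 differences of 0.83 to 1.26 when any 1 library was left out. In the DEN+CCl4 model Ghr stood at 185, 153 and 217 CPM in controls and at 58.3, 91.8 and 115 CPM after depletion. All 3 depletion libraries lay below all 3 controls, with a log2 difference of −1.07 ± 0.27 that did not pass (adjusted p 0.0798, and 0.0418 without depletion 10). It passed in 2 of 14 alternatives, with an adjusted p of up to 0.225 in the others. When any 1 library was left out, the log2 difference was −1.30 to −0.84. Between these effects the difference was 2.14 ± 0.37 (adjusted p 0.0104), and it passed under all 19 alternatives. By group mean the order was N-Ras+AKT depletion (302 ± 83.6 CPM, SD, n = 3), DEN+CCl4 control (185 ± 31.6), N-Ras+AKT control (143 ± 28.9) and DEN+CCl4 depletion (88.2 ± 28.3), and only the middle pair overlapped.

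Stat5a and Stat5b, the transcription factors that carry the GH signal, lie side by side on chromosome 11 (GRCm38), 8626 bp apart. Both rose after depletion in N-Ras+AKT tumours. Stat5a went from 7.19, 7.34 and 5.75 CPM in controls to 13.5, 9.44 and 17.2 CPM (log2 0.99 ± 0.22, adjusted p 0.00943). Stat5b went from 29.0, 29.8 and 24.9 CPM to 43.6, 38.9 and 55.5 CPM (log2 0.72 ± 0.15, adjusted p 0.00853). In both genes every depletion library lay above every control, replicate 17 was the highest, and the call held under all 14 alternatives. In the other model Stat5a was at 12.1, 10.5 and 15.5 CPM in controls and at 13.0, 10.0 and 12.6 CPM after depletion (log2 −0.10 ± 0.22, adjusted p 0.854). Stat5b was there at 52.1, 48.8 and 66.8 CPM and at 51.8, 45.7 and 55.2 CPM (log2 −0.14 ± 0.15, adjusted p 0.685). The groups overlapped in both genes.

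The N-Ras+AKT controls were the low group of the 4 for both STAT5 genes. Stat5a was at 6.76 ± 0.877 CPM there and at 11.9 to 13.4 CPM on average in the other groups, which overlapped one another, and Stat5b was at 27.9 ± 2.65 CPM there and at 46.02 to 55.9 CPM in the others. The difference between depletion effects was 1.08 ± 0.31 for Stat5a (adjusted p 0.0414, lost in 12 of 19 alternatives) and 0.86 ± 0.22 for Stat5b (0.0283, lost in 8 of 19). Without N-Ras+AKT depletion 17 these were 0.84 (adjusted p 0.101) and 0.68 (0.0669), and without DEN+CCl4 control 13 they were 0.92 (0.0966) and 0.71 (0.0625). Without both libraries that lay apart they were 0.92 (adjusted p 0.0961) and 0.71 (0.0803). The log2 ratio of Stat5a to Stat5b differed by 0.24 after depletion in N-Ras+AKT and by 0.04 in DEN+CCl4 tumours (exact permutation tests, two-sided, p 0.3 and 0.6). Near-identical stretches of the genes can share reads, and the end of Stat5a overlaps Stat3 on the opposite strand, a gene with 5164 counts a library on average against 439 for Stat5a, so the level of Stat5a in particular is uncertain where counting ignored strand.

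Socs2, the gene of a GH-induced inhibitor of the receptor, did not pass in either depletion comparison. DEN+CCl4 tumours held Socs2 at 15.4, 13.3 and 18.4 CPM in controls and at 29.4, 24.5 and 23.7 CPM after depletion, where Ghr was low. The groups did not overlap, and the log2 difference of 0.72 ± 0.21 did not pass (adjusted p 0.112). The N-Ras+AKT values of Socs2 were 57.6, 32.5 and 39.0 CPM in controls and 28.9, 40.2 and 39.5 CPM after depletion (log2 −0.25 ± 0.21, adjusted p 0.412). These groups overlapped, with control 3 the highest. The effects differed by −0.97 ± 0.30, which lay at an adjusted p of 0.0558, and it passed without N-Ras+AKT control 10 (0.0228), in DESeq2 (0.0218), with upper quartile factors (0.0454) and without scaling factors (log2 −1.31, 0.0195). In 15 of the 19 alternatives this difference did not pass, with an adjusted p of up to 0.133. Mean levels ordered as N-Ras+AKT control (43.0 ± 13.0 CPM), N-Ras+AKT depletion (36.2 ± 6.36), DEN+CCl4 depletion (25.9 ± 3.10) and DEN+CCl4 control (15.7 ± 2.54), and of the neighbours only the last pair did not overlap.

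The log2 ratio of Socs2 to Ghr within a library was almost the same in the 3 DEN+CCl4 controls, −3.59, −3.52 and −3.56. It was −0.99, −1.90 and −2.27 after depletion in that model. Across N-Ras+AKT tumours the ratio was −1.13, −2.44 and −1.71 in controls and −3.28, −2.52 and −3.32 after depletion. The groups did not overlap in either model, with differences of 1.83 in DEN+CCl4 and −1.28 in N-Ras+AKT tumours. An exact permutation test of 3 against 3 libraries cannot go below p 0.1, the value found in both (two-sided, 0.2 and 0.16 after adjustment over the 8 ratios of a comparison).

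Cish, the other STAT5-induced inhibitor and the one whose promoter window holds 2 STAT5-type matches, showed no difference that passed in any comparison. It stood at 14.7, 4.91 and 22.8 CPM in DEN+CCl4 controls and at 16.9, 11.1 and 22.5 CPM after depletion (log2 0.25 ± 0.46, adjusted p 0.814). With N-Ras+AKT it was at 15.8, 10.7 and 8.94 CPM in controls and at 12.4, 14.1 and 9.31 CPM after depletion (log2 0.01 ± 0.46, adjusted p 0.987). All groups overlapped, and DEN+CCl4 control 8 was the lowest library. With this spread a log2 difference had an SE of 0.46, so changes well above that size could have been missed.

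Igf1, the hormone gene itself, did not pass in either depletion comparison. It was at 274, 195 and 326 CPM in DEN+CCl4 controls and at 199, 247 and 293 CPM after depletion (log2 −0.11 ± 0.24, adjusted p 0.854). With N-Ras+AKT it was at 368, 326 and 251 CPM in controls and at 332, 348 and 508 CPM after depletion (log2 0.33 ± 0.24, adjusted p 0.337). Groups overlapped in both models, with N-Ras+AKT depletion 17 the highest library. The effects differed by 0.44 ± 0.34 (adjusted p 0.421). The antisense gene Igf1os, with 15.1 counts a library on average against 12887 for Igf1, overlaps its start.

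Igfals, which encodes the acid-labile subunit that holds IGF-I in its large circulating complex, rose in N-Ras+AKT tumours and, like Ghr, differed between the models in its depletion effect. There it went from 10.1, 13.0 and 7.83 CPM in controls to 20.1, 21.3 and 41.0 CPM after depletion. The groups did not overlap, and Igfals rose 2.66-fold (log2 1.41 ± 0.39, adjusted p 0.0255). That call ended without control 3 (adjusted p 0.0795), control 15 (0.0896) or depletion 17 (log2 1.00, 0.106), without a filter on low counts (0.0796) and without both libraries that lay apart (0.0834). With DEN+CCl4 it was at 17.2, 14.7 and 32.8 CPM in controls and at 6.72, 8.85 and 13.3 CPM after depletion, without overlap (log2 −1.16 ± 0.39, adjusted p 0.157). Igfals effects differed by 2.57 ± 0.55 (adjusted p 0.0183), and it held in 18 of 19 alternatives, the exception being the fit without both libraries that lay apart (log2 1.96, adjusted p 0.0576).

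Within a library, Igf1 had 16.5, 16.3 and 12.4 times the CPM of Igfals after depletion in N-Ras+AKT tumours and 36.4, 25.0 and 32.1 times in the controls. The DEN+CCl4 values were 15.9, 13.3 and 9.93 times in controls and 29.6, 27.9 and 22.0 times after depletion. The log2 ratio of Igfals to Igf1 thus differed by 1.04 and by −1.04, without overlap in either model (exact permutation tests, two-sided, p 0.1 each, the smallest that 3 against 3 libraries allow).

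Igfbp3, which encodes the main carrier of IGF-I in that complex and whose RNA in rat liver lies mostly in cells other than hepatocytes, fell after depletion in N-Ras+AKT tumours. It went from 403, 169 and 147 CPM in controls to 64.2, 70.1 and 8.34 CPM, with control 3 far above the other controls and depletion 17 far below the other depletion libraries. The groups did not overlap, and the fall was 5.04-fold (log2 −2.33 ± 0.72, adjusted p 0.0394). The call ended without control 3 (log2 −1.73, adjusted p 0.153), control 15 (0.0586), depletion 6 (0.0734) or depletion 17 (log2 −1.84, 0.0659), without the filter on low counts (0.12) and in a fit of that model alone (0.0698), and was 0.0565 without both libraries that lay apart. The DEN+CCl4 levels of Igfbp3 were 11.9, 19.0 and 14.5 CPM in controls and 69.5, 58.1 and 22.4 CPM after depletion, all above the controls (log2 1.72 ± 0.71, adjusted p 0.23). Igfbp3 effects differed by −4.06 ± 1.01 (adjusted p 0.0296, lost in 8 of 19 alternatives, among them without N-Ras+AKT control 3 at −3.46, 0.0742). Igfbp3 and Igfbp1 are neighbours on chromosome 11, 3539 bp apart.

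Igfbp1, the binding protein gene that fasting and FOXO factors induce, was the most abundant of the 10 per length in both DEN+CCl4 groups and in the N-Ras+AKT controls. Its DEN+CCl4 levels were 488, 808 and 926 CPM in controls and 3285, 2352 and 2499 CPM after depletion. All 3 depletion libraries lay above the highest control, and the log2 difference of 1.87 ± 0.46 did not pass in edgeR (adjusted p 0.0809) and passed in DESeq2 (0.000799). Under N-Ras+AKT it was at 359, 173 and 120 CPM in controls and at 115, 206 and 69.2 CPM after depletion, with overlap (log2 −0.74 ± 0.45, adjusted p 0.258). Igfbp1 effects differed by −2.61 ± 0.64 (adjusted p 0.027). That call was lost in 9 of 19 alternatives, among them the fits without N-Ras+AKT control 3 (log2 −2.04, 0.0533), N-Ras+AKT depletion 17 (−2.33, 0.0535) and DEN+CCl4 control 7 (−2.38, 0.0677). Without both libraries that lay apart the difference was −2.15 (adjusted p 0.0911).

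Igfbp2, a binding protein gene of fetal liver that is also made by many liver tumours, rose the most of the 10 genes in N-Ras+AKT tumours. It went from 4.96, 34.0 and 15.1 CPM in controls to 86.4, 216 and 209 CPM after depletion. Each depletion library was above each control, and the rise was 9.46-fold (log2 3.24 ± 0.59, adjusted p 0.00587), held under all 14 alternatives and 4.09 on the log2 scale without control 10. DEN+CCl4 tumours held much of it in both groups, at 314, 305 and 347 CPM in controls and at 377, 305 and 470 CPM after depletion, with overlap (log2 0.25 ± 0.54, adjusted p 0.848). Igfbp2 effects differed by 2.99 ± 0.79 (adjusted p 0.036), lost in 11 of 19 alternatives, among them without N-Ras+AKT depletion 17 (2.80, 0.0896) or DEN+CCl4 depletion 9 (2.85, 0.0878). Without both libraries that lay apart the difference was 2.80 (adjusted p 0.14).

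**Figure D3:**
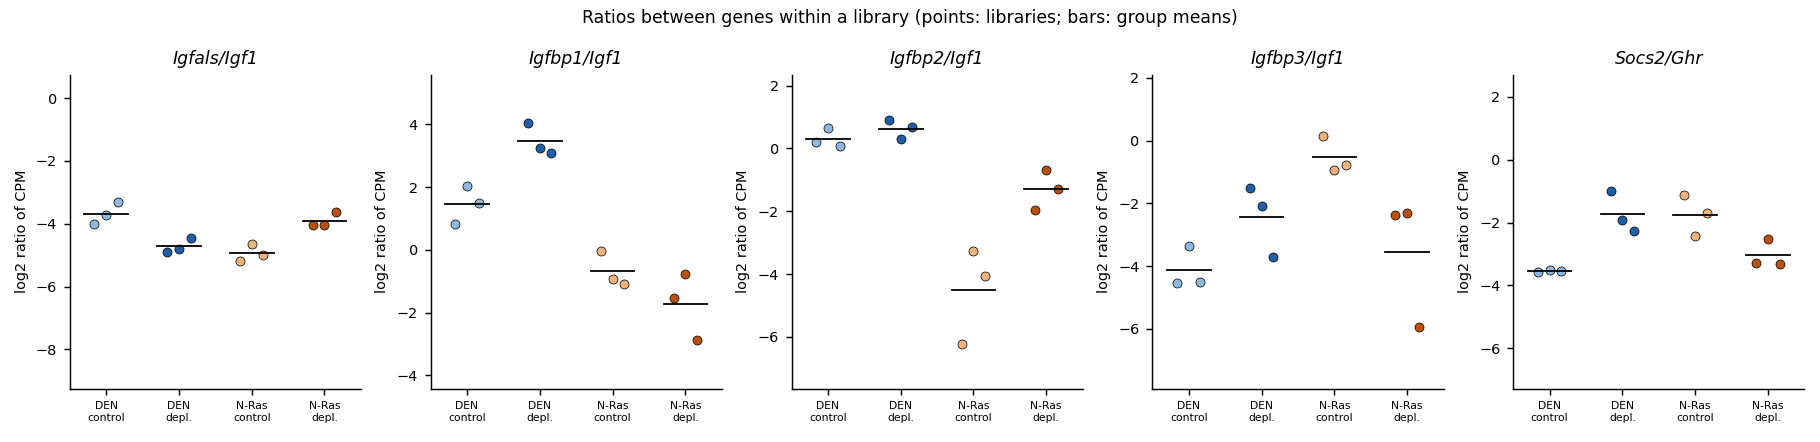
Log2 ratio of CPM (y) of pairs of genes within each library, by group (x) in DEN+CCl4 (DEN) and N-Ras+AKT (N-Ras) tumours, on axes that each span the same range, with points for libraries and bars for means. Igfals/Igf1 is lower by 1.04 after depletion in DEN+CCl4 and higher by 1.04 in N-Ras+AKT, Igfbp2/Igf1 is higher by 3.20 after depletion in N-Ras+AKT, and Socs2/Ghr is nearly constant in DEN+CCl4 controls.

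Set against Igf1 in the same library, the carriers differed in direction. In N-Ras+AKT tumours the log2 ratio to Igf1 differed after depletion by 3.20 for Igfbp2, by −3.01 for Igfbp3 and by −1.05 for Igfbp1, the last with overlapping groups. Without depletion 17 the Igfbp3 value was −1.81 and the Igfbp1 value −0.47, and without control 3 the Igfbp2 value was 2.35. For DEN+CCl4 tumours the values were 0.33 for Igfbp2 and 1.69 for Igfbp3, both with overlap, and 2.0 for Igfbp1, without. For the carriers of the large complex, the log2 ratio of Igfbp3 to Igfals differed by −4.05 in N-Ras+AKT (−2.72 without depletion 17) and by 2.73 in DEN+CCl4 tumours (3.49 without depletion 10 and 2.18 without depletion 6), without overlap in either. None of these exact permutation tests can go below p 0.1, and after adjustment over 8 ratios the smallest were 0.16 in N-Ras+AKT and 0.2 in DEN+CCl4 tumours.

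The make-up of IGF binding protein RNA was then set on a scale per length, as TPM, a share of transcripts corrected for length, over merged exons, for Igfbp1 to Igfbp7. TPM carries no TMM factors, so a summed TPM is not scaled between groups as CPM is. In DEN+CCl4 controls Igfbp1 made up 43.9% ± 7.66 (SD, n = 3) of the summed TPM, Igfbp4 34.3% ± 4.98 and Igfbp2 16.2% ± 2.10. After depletion Igfbp1 was at 74.9% ± 3.93, from 71.2% to 79.0% in the libraries, above its highest share in the controls (48.7%), while the summed TPM was 5073 ± 894 against 2191 ± 422. In N-Ras+AKT controls 4 genes made up most of the sum: Igfbp1 31.2%, Igfbp4 29.1%, Igfbp7 20.0% and Igfbp3 16.9%, with Igfbp2 at 2.56%. After depletion there Igfbp4 led with 39.3% ± 6.35, followed by Igfbp2 at 22.5% ± 7.84, Igfbp1 at 20.6% ± 7.90, Igfbp7 at 13.6% ± 2.87 and Igfbp3 at 3.81% ± 2.82, of a summed TPM of 1050 ± 200.3 against 1379 ± 399 in controls. The shares of Igfbp2 (14.1% or more against 4.56% or less) and Igfbp3 (6.19% or less against 13.4% or more) did not overlap between these groups.

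**Figure D4:**
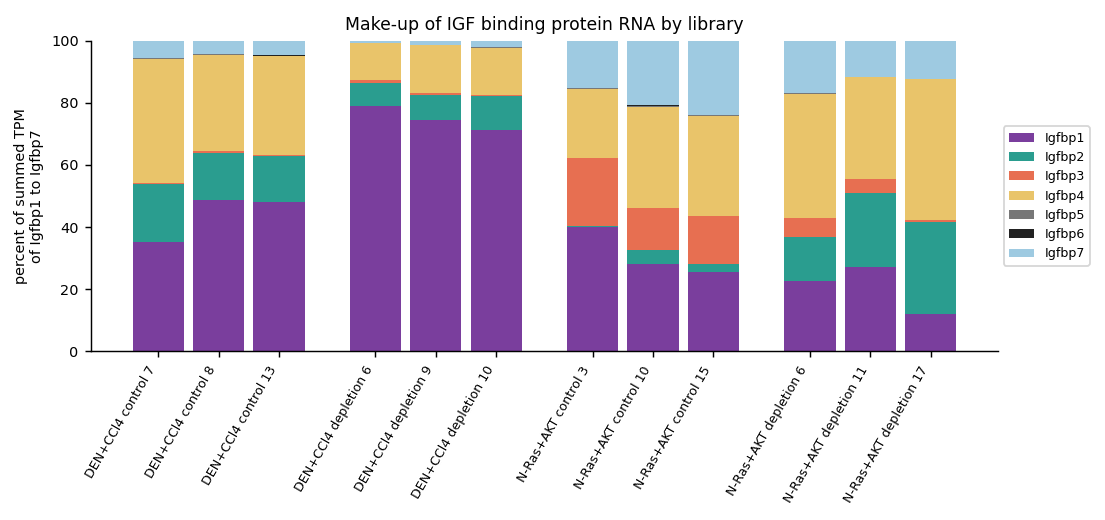
Share of the summed TPM of Igfbp1 to Igfbp7 (y, percent) taken by each gene (colours) in each of the 12 libraries (x). Igfbp1 takes 71.2% to 79.0% in the DEN+CCl4 depletion libraries, and the Igfbp3 share of 13.4% or more in N-Ras+AKT controls gives way to an Igfbp2 share of 14.1% or more after depletion.

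Per length, Igf1 ranked 3 of the 10 in every group, at 53.3 ± 11.8, 52.8 ± 6.86, 102 ± 13.0 and 104 ± 20.5 TPM in DEN+CCl4 control, DEN+CCl4 depletion, N-Ras+AKT control and N-Ras+AKT depletion. Ghr was at 40.8, 20.6, 50.6 and 86.8 TPM in the same order. These TPM carry no TMM factors, so they set genes side by side within a group and are not a comparison of groups. Ghr, for one, was higher in N-Ras+AKT than in DEN+CCl4 controls as TPM but lower as CPM (143 against 185). Stat5b, at 20.2, 19.6, 16.2 and 21.7 TPM, was above Stat5a, at 3.56, 3.56, 3.03 and 4.90 TPM, in each group. With the longest transcript as the length, Ghr came to 74.0, 37.8, 90.4 and 159 TPM and passed Igf1 (62.6, 62.7, 118 and 124 TPM) in 2 of the groups, so the order of these neighbours depends on the length chosen.

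Hepatocyte markers differed between groups along with several of these genes. In N-Ras+AKT tumours the mean log2 CPM of 14 hepatocyte markers was higher by 0.86 after depletion, 6 of the 14 rose (12.8% of all genes did) and 0 fell, and in DEN+CCl4 tumours it differed by 0.05. The summed CPM of the markers, most of which is Alb, overlapped in N-Ras+AKT tumours (71121 to 75624 in controls, 68589 to 83339 after depletion). Subtracting the marker mean within each library lowers every gene by that amount in N-Ras+AKT tumours. After it, 67.5% of all genes tested lay lower without overlap and 2.94% higher, so the 5 of the 10 genes that lay lower (Igf1 at −0.54, Socs2 −1.08, Cish −0.83, Igfbp1 −1.59 and Igfbp3 −3.55) are below that share. Ghr differed by 0.20, Stat5a by 0.09 and Stat5b by −0.15, with overlapping groups, where log2 CPM alone had differed without overlap. Against the marker median in place of the mean these were −0.090, −0.20 and −0.44, so the sign for Ghr and Stat5a turns with the summary chosen. Igfbp2 (2.66, or 2.38 against the median) and Igfals (0.50, or 0.21) lay higher without overlap against the mean. Against the median 1 of the 10 genes did, beside 1.63% of all genes, and 5 lay lower, beside 77.7%. In DEN+CCl4 tumours the same subtraction left 2 of the 10 higher (5.56% of all genes), Socs2 at 0.68 and Igfbp1 at 1.86, and 3 lower (14.6%), Ghr at −1.16, Igfals at −1.18 and Stat5b at −0.17. Igfbp3, at 1.55, then overlapped, which it had not as CPM, and Stat5b had overlapped as CPM and was at 0.085 against the median.

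**Figure D5:**
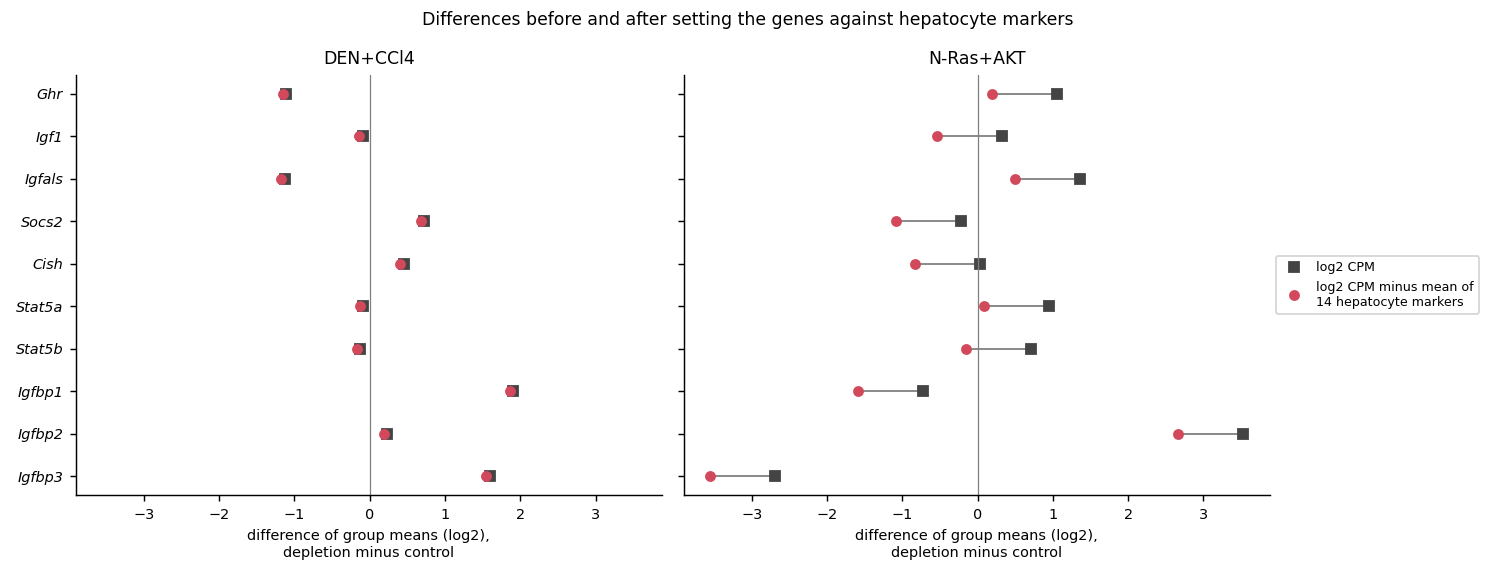
Difference of group means on a log2 scale (x), depletion minus control, of each gene (y) as log2 CPM (squares) and after subtracting the mean log2 CPM of 14 hepatocyte markers in each library (circles). With N-Ras+AKT every gene shifts down by 0.86, which brings Ghr to 0.20 (−0.090 if the marker median is used) and Stat5a to 0.09 (−0.20), and in DEN+CCl4 tumours the shift is 0.05.

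Markers of other cell types also differed. In N-Ras+AKT tumours 11 of 12 macrophage and Kupffer cell markers rose (summed level 200 to 390 CPM in controls, 606 to 815 after depletion), 6 of 9 cholangiocyte markers tested fell (7143 to 10332 CPM against 310 to 3484), and 4 of 12 endothelial and 1 of 12 stellate cell and fibroblast markers rose, with 1 of the latter lower. Of all genes, 12.8% rose and 10.8% fell in N-Ras+AKT tumours. In DEN+CCl4 tumours 0 of each of these lists passed, where 0.37% of all genes did. The summed endothelial level there was 453 to 486 CPM in controls and 188 to 333 after depletion, the cholangiocyte level 198 to 494 against 48.2 to 155 and the stellate cell and fibroblast level 537 to 637 against 176 to 467. No gene of these 4 lists was at 0 throughout a group. Their part in the Igfbp3, Igfbp1, Ghr and other differences was not tested. Pituitary and skeletal muscle markers each summed to 0.382 CPM or less in every library, and exocrine pancreas markers to 38.9 to 44.9 CPM in DEN+CCl4 controls, 15.5 to 36.0 after depletion there and 9.62 to 15.6 CPM in N-Ras+AKT libraries. Of the 3 pancreas markers, 2 were at 0 throughout each DEN+CCl4 group and 1 throughout each N-Ras+AKT group, so the DEN+CCl4 sums come from a single gene.

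Other genes of GH signalling were examined as a list of 14. After depletion with N-Ras+AKT 4 rose and 1 fell (median log2 0.11), where 12.8% of all genes rose and 10.8% fell. With DEN+CCl4 0 passed (median −0.13), where 0.37% of all genes did. Prlr, the prolactin receptor that also signals through STAT5, rose from 58.9, 59.99 and 42.8 to 123, 128 and 219 CPM (log2 1.54 ± 0.27, adjusted p 0.00451) and Cux2, a STAT5-regulated repressor that is female-biased in mouse liver, from 0.379, 1.42 and 0.726 to 3.58, 10.9 and 17.3 CPM (log2 3.66 ± 0.73, adjusted p 0.00804). Neither pair of groups overlapped, and both calls held under all 14 alternatives. Jak2, the receptor's kinase, was slightly lower after depletion, at 23.6 ± 1.93 against 29.5 ± 2.89 CPM (log2 −0.32 ± 0.11, adjusted p 0.0456), a call lost without any 1 of N-Ras+AKT controls 3 and 15 and depletion libraries 6, 11 and 17 (adjusted p 0.0603 to 0.149).

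Of 8 genes for the IGF and insulin receptors, IGF-II and their adaptors, 3 rose and 2 fell in N-Ras+AKT tumours (median log2 −0.28). Of all genes 12.8% rose and 10.8% fell there. In DEN+CCl4 tumours 0 of the 8 passed (median −0.24), where 0.37% of all genes did. None of the 8 passed without N-Ras+AKT control 3 or depletion 17, where 2257 and 1768 of all genes did. Without scaling factors 1 rose and 3 fell, beside 1326 and 3227 of all genes. Igf1r, the receptor of IGF-I, was low in all groups, between 1.69 and 5.70 CPM, and did not pass (log2 −0.25, adjusted p 0.54 in N-Ras+AKT; −0.37, 0.502 in DEN+CCl4). Insr, the insulin receptor, rose from 92.9 ± 4.56 to 129 ± 20.9 CPM in N-Ras+AKT tumours (log2 0.48 ± 0.14, adjusted p 0.0269; 0.0619 to 0.132 without control 3, control 15, depletion 6 or depletion 17). Igf2, the fetal growth factor gene, fell from 3.53, 2.35 and 1.05 to 0.621, 0.836 and 0.293 CPM (log2 −1.98 ± 0.52, adjusted p 0.0191; 0.0515 to 0.0794 without control 3, depletion 6 or depletion 17). The binding protein and protease list of 9 had 8 tested, of which 1 rose (Htra1, log2 1.31) and 3 fell in N-Ras+AKT tumours, beside 12.8% and 10.8% of all genes. The falls were led by Stc2 (−2.65), an inhibitor of the pappalysin proteases that cleave IGF binding proteins, and Igfbp6 (−2.54). Igfbp6 was at 7 counts or fewer in each depletion library. Htra1 lost its call without control 3, control 15 or depletion 6 (adjusted p 0.0505 to 0.0964), Stc2 without control 3, control 15, depletion 11 or depletion 17 (0.0526 to 0.0998) and Igfbp6 without control 10, depletion 11 or depletion 17 (0.0535 to 0.0645).

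Genes that GH regulates in a sex-dependent way in mouse liver, and targets of the FOXO factors that insulin holds down, were counted next. Of 11 male-biased genes tested, 5 rose and 0 fell in N-Ras+AKT tumours (median log2 1.296), and of 12 female-biased genes 6 rose and 0 fell (median 1.89), beside 12.8% and 10.8% of all genes. Cux2 is counted both among the female-biased genes and in the GH signalling list. Without N-Ras+AKT control 3, control 15 or depletion 17 the male-biased count was 1 and the female-biased count 5. Of all genes 2257, 2225 and 1768 passed in those fits, against 4027 with every library. The male-biased bile acid enzyme Cyp7b1 went from 3.61, 5.98 and 6.11 to 38.1, 23.5 and 123 CPM (log2 3.55 ± 0.64, adjusted p 0.00578; 2.55 without depletion 17). Among female-biased genes Sult3a1 (log2 4.55 ± 0.90, adjusted p 0.00665; 3.57 without depletion 17) and Cyp2b13 (4.04 ± 0.52, 0.00334; 4.71 without control 10) rose, both from 0.258 CPM or less in each control, and reads of these gene families may be split between near-identical copies. In DEN+CCl4 tumours 0 of the male-biased genes passed and 1 of the female-biased genes fell, where 0.37% of all genes passed and 0.259% fell. The gene was Cyp2b13, which went from 55.9, 51.5 and 51.9 to 6.54, 11.4 and 14.2 CPM (log2 −2.31 ± 0.37, adjusted p 0.0382). That call was lost without any 1 library of the comparison other than depletion 10 (adjusted p 0.0685 to 0.171). The difference between the Cyp2b13 effects was 6.35 ± 0.63 (adjusted p 0.0038).

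Of 14 FOXO targets, a list that holds Igfbp1, 6 rose and 0 fell in N-Ras+AKT tumours (median log2 0.62, beside 12.8% of all genes that rose), and 0 passed in DEN+CCl4 tumours (median 0.57, beside 0.37% of all genes), where 10 of the 14 lay above 0 and 4 below. This list shares Insr and Irs2 with the receptor and adaptor list and Bcl6 with the GH signalling list, so the counts of these lists are not separate. Without N-Ras+AKT control 3, control 15 or depletion 17 the count was 2, where 2257, 2225 and 1768 of all genes passed. Without scaling factors 3 rose and 1 fell, beside 1326 and 3227 of all genes. G6pc, the last enzyme of glucose release, rose from 5.54, 26.3 and 14.3 to 122, 118 and 299.7 CPM in N-Ras+AKT tumours (log2 3.55 ± 0.61, adjusted p 0.00474; 4.19 without control 10 and 2.96 without depletion 17). In DEN+CCl4 tumours it was at 32.7, 37.7 and 78.4 CPM in controls and at 118, 165 and 157 CPM after depletion, without overlap (log2 1.56 ± 0.56, adjusted p 0.179). Irs2, an insulin receptor adaptor, was at 11.1, 4.88 and 16.3 CPM and at 63.8, 26.5 and 36.4 CPM there (log2 1.97 ± 0.44, adjusted p 0.0715), and rose in N-Ras+AKT tumours (log2 1.53 ± 0.44, adjusted p 0.03; 0.0575 to 0.121 without control 3, 10 or 15 or depletion 11 or 17). Txnip, which restrains glucose uptake, rose in N-Ras+AKT tumours (log2 1.71 ± 0.27, adjusted p 0.00384) and was at log2 0.022 in DEN+CCl4 tumours (adjusted p 0.979).

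The controls of the models were then compared with each other, which sets tumour type, oncogenes, time and treatment against one another at once. Of the 10 genes, 2 were higher and 5 lower in N-Ras+AKT than in DEN+CCl4 controls, against 20.8% and 19.8% of all genes (40.6% in all). Socs2 was higher (log2 1.45 ± 0.21, adjusted p 0.000387), as was Igfbp3 (3.99 ± 0.77, 0.00259). Igfbp2 was lower, at a log2 difference of −4.16 ± 0.62 (adjusted p 0.000575), as were Igfbp1 (−1.77 ± 0.46, 0.0106), Stat5b (−1.002 ± 0.16, 0.000511), Stat5a (−0.91 ± 0.22, 0.00608) and Igfals (−1.06 ± 0.39, 0.0484, lost in 8 of 14 alternatives, among them at −0.62 and 0.215 without DEN+CCl4 control 13). Ghr (log2 −0.37, adjusted p 0.281), Igf1 (0.25, 0.424) and Cish (−0.26, 0.69) did not pass. Without scaling factors the median of all genes moves by 0.65 in this comparison. Ghr (0.28) and Cish (0.41) are then above 0, Igf1 passes (0.90, adjusted p 0.00227), and Stat5a (−0.26, 0.268), Igfbp1 (−1.14, 0.0567) and Igfals (−0.41, 0.314) do not.

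Between the depletion groups, which share no library with that comparison, 3 of the 10 were higher in N-Ras+AKT tumours and 1 lower, against 17.9% and 15.8% of all genes (33.7% in either direction). Ghr was higher by 1.77 (SE 0.27, adjusted p 0.000579), Igfals by 1.51 (0.39, 0.0135, and 0.0519 without DEN+CCl4 depletion 6; log2 0.87, 0.133 without both libraries that lay apart) and Igf1 by 0.69 (0.24, 0.0432, lost without any 1 of DEN+CCl4 depletion 6 and 9 and N-Ras+AKT depletion 11 and 17, at 0.0521 to 0.175, and at log2 0.30, 0.394 without both libraries that lay apart). Igfbp1 was lower by 4.38 (0.51, adjusted p 0.000153), from 2352 CPM or more to 206 CPM or less. Igfbp3, at log2 −0.07, and the STAT5 genes, at 0.17 and −0.15, did not pass.

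The protein-coding genes most like a member over the 12 libraries were ranked by the root-mean-square difference of log2 CPM, each gene centred on its own mean. Nearest to Ghr were Slfn8, Ugt2b1 and Cd59b (0.16 to 0.21 log2 units, against a median of 0.81 over 14148 genes), and nearest to Igfals were Ces1c, Gbp5 and Ces1d (0.24 to 0.30, median 0.85). For Igf1 they were Nmt2, Mettl26 and Afg1l (0.18 to 0.19, median 0.53), for Socs2 Ribc1, Ccdc181 and Slc29a2 (0.18 to 0.25, median 0.72) and for Cish Prickle3, Nfil3 and Pnrc1 (0.30 to 0.37, median 0.70). The genes nearest to Igfbp1, Col17a1, Slc10a6 and Slc41a3, differed from it by 0.78 to 0.80 log2 units (median 1.88). Igfbp1 itself varied with an SD of 1.91, against 0.39 (Igf1) to 0.80 (Igfals) for the other members ranked. This distance grows with a gene's own spread, so its size does not set Igfbp1 apart from them.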

How the data were processed

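Per the labels' protocols, libraries of poly(A) RNA from 12 tumours were prepared by KAPA mRNA HyperPrep for a NovaSeq instrument. The authors deposited whole-number read counts per Ensembl gene. The submitters' processing notes name mm10, RSEM 1.3.1, STAR 2.7.3 and Cell Ranger 3.0.2, without a role, so the counts may be rounded estimates. Annotation release and strand setting: not given in the sources used here. Single-cell samples, 6 in number, are not analysed here. Of 55335 identifiers, 55154 matched GENCODE M21 symbols, and the 181 others held 0.0064% of counts.

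Genes were filtered with edgeR 4.0.16 (R 4.3.3), leaving 17013. All 12 libraries were fitted together by group with TMM factors and the quasi-likelihood test (8 residual degrees of freedom, biological coefficient of variation 0.238). Log2 differences carry SE, and adjusted p-values (Benjamini-Hochberg over all genes tested) under 0.05 passed. DESeq2 1.42.0, limma-voom (limma 3.58.1), other scalings, no filter and left-out libraries were alternatives. TPM used GENCODE M21 exon lengths and no TMM factors. The fit was tested on simulated data. Replicates of a group differed by more than sampling noise (chi-square per degree of freedom 67.67 to 273.41). The 10 genes and all lists were chosen with earlier results of these data known. Of other lists, at most the 3 largest changes that passed are named, with Jak2, Igf1r, Insr and Igf2 always given.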

Additional observations from a re-analysis of the deposited data

Results flagged for a closer look

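For 7 of the 10 genes the depletion effect differed between the groups of the models, by the test of the difference itself (N-Ras+AKT minus DEN+CCl4, edgeR's quasi-likelihood test), against 11.6% of all genes. The log2 difference of effects was 2.14 for Ghr (adjusted p 0.0104), 2.57 for Igfals (0.0183), 1.08 for Stat5a (0.0414) and 0.86 for Stat5b (0.0283). Among the binding protein genes it was 2.99 for Igfbp2 (adjusted p 0.036), -2.61 for Igfbp1 (0.027) and -4.06 for Igfbp3 (0.0296). The Ghr difference passed under all 19 alternatives and the Igfals difference under 18 of them, while the call was lost in 12 for Stat5a, 11 for Igfbp2, 9 for Igfbp1 and 8 each for Stat5b and Igfbp3. With 1 library left out, 2 to 8 of the 10 genes and 895 to 2326 of all genes passed. Without both libraries that lay apart 2 of the 10 and 844 of all genes did. Model and days after the last tamoxifen dose cannot be told apart in this difference.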

How the results depend on the processing

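The number of genes that passed in N-Ras+AKT tumours after depletion was 4027, and it was 2626 with only the libraries compared, 2429 without the 2 libraries that lay apart, and 1768 to 4126 with 1 library left out. For DEN+CCl4 tumours it was 63, and 41 without scaling factors, 171 without a filter, 1066 in DESeq2, 13 with only the libraries compared, 26 without the libraries that lay apart, and 2 to 465 with 1 left out. For the difference of effects it was 1970, and 2970 without scaling factors, 2984 in DESeq2, 844 without the libraries that lay apart, and 895 to 2326 with 1 left out. Between the controls it was 6901, and 10460 without scaling factors. Without scaling factors the genes that passed split into 1326 higher and 3227 lower in N-Ras+AKT tumours (2186 and 1841 with them), 827 and 2143 for the difference (1357 and 613), 9401 and 1059 between controls (3538 and 3363) and 5578 and 1187 between depletion groups (3051 and 2689), while the median of all genes moved by -0.20, -0.33, 0.65 and 0.31.

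Log2 differences from the test that changed sign belonged to genes that had not passed in that comparison, and the cause was not tested. Without scaling factors, Cish was -0.18 in N-Ras+AKT tumours (-0.021 with upper quartile factors), Igf1 0.023 and Stat5a 0.034 in DEN+CCl4 tumours, Ghr 0.28 and Cish 0.41 between controls, and Stat5b 0.17 and Igfbp3 0.24 between depletion groups. Without the libraries that lay apart, Igf1 was 0.035 in DEN+CCl4 tumours, and Stat5a -0.015 and Igfbp3 0.70 between depletion groups. Against the median in place of the mean of the hepatocyte markers, the sign turned for Ghr (-0.090) and Stat5a (-0.20) in N-Ras+AKT tumours, both of which had passed in the test, for Stat5b (0.085), Igf1 (0.12) and Stat5a (0.12) in DEN+CCl4 tumours, and for Cish (-0.21) and Igfbp3 (-0.18) between depletion groups. With 1 library left out, the range in N-Ras+AKT tumours was -0.41 to 0.020 for Socs2 and -0.15 to 0.28 for Cish. In DEN+CCl4 tumours it was -0.28 to 0.070 for Igf1, -0.16 to 0.79 for Cish, -0.22 to 0.072 for Stat5a and -0.22 to 0.013 for Stat5b. It was -0.77 to 0.17 for Cish in the difference and -0.67 to 0.28 between controls, and -0.072 to 0.37 for Stat5a and -0.46 to 0.40 for Igfbp3 between depletion groups.

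Of the alternative values of the 10 genes, 624 kept direction and side of the threshold, 82 lost the call, 13 gained it and 31 changed sign. No paired analysis was possible because the groups compared share fewer than 2 replicate numbers. With 3 libraries a group, library totals limit these genes less than the spread between libraries does.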
